A study of Homo sapiens with 12 samples.

Results

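Cytosolic ribosomal proteins are the protein part of the ribosomes that translate nuclear messages. The set was taken from the deposited Huh7 expression table as the genes whose symbol starts with RPL or RPS, or is RPSA or FAU, and whose description names a ribosomal protein and no pseudogene, kinase or like protein, and it holds 81 of the 60666 listed genes. The description of FAU contains the word like, so the set without that exception holds 80. Of the 81, 78 encode subunit proteins that passed the filter on low values (32 of the 40S and 46 of the 60S subunit), RPS19BP1 encodes a binding partner of RPS19 and no subunit, and 2 are Y-linked 40S genes that did not pass the filter and are counted only. The 78 subunit genes were above the filter in every library, the lowest single value being 304 TPM (transcript reads scaled for length and for the size of the library), so the filter selected none of them by its change.

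The study silenced FAM111B, which encodes a protein with a trypsin-like peptidase domain, in hepatocellular carcinoma cells and asked which genes change. Huh7, a hepatocellular carcinoma line, carried either a control lentivirus (3 libraries) or a lentivirus with a short hairpin RNA against FAM111B (shFAM111B, 3 libraries), and infected cells of both kinds were selected with puromycin. Poly(A) RNA was sequenced with a stranded kit, and the Hep3B libraries of the series were not analysed here. The supplement of the study lists a single hairpin sequence against FAM111B, so an effect of the hairpin itself and one of the silencing cannot be told apart. The sources used here do not give how many separate infections the libraries stand for, so the p-values measure the spread between these libraries, which may be technical. FAM111B had 7.84, 8.29 and 7.99 TPM in control and 0.96, 1.13 and 0.84 TPM in shFAM111B (log2 fold change -2.20 ± 0.11, adjusted p = 6.09e-06, n = 3 per group), so the labels and the targeted transcript go together. Here and below, errors of log2 fold changes are SE and errors of TPM are SD, with 3 libraries per group. The hepatocyte markers ALB, AFP, APOA1, TF, SERPINA1, FGB, TTR, GPC3, AHSG and APOB were all present, from 45.7 TPM (APOB) to 25038 TPM (AFP) in single libraries. Of 10 markers of blood, endothelium and fibroblasts the highest value was 11.96 TPM (COL1A2), PTPRC did not exceed 2.39 TPM, and CD3E, CDH5 and DCN were at or near 0.

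Each ribosome carries nearly every one of these proteins in a single copy, and their genes are among the most strongly transcribed of growing cells. Most of their mRNAs start with a C followed by a run of pyrimidines, the terminal oligopyrimidine (TOP) tract, which lets the kinase mTORC1 and the RNA-binding protein LARP1 control their translation and stability as a group. The proteins are imported into the nucleolus, joined to ribosomal RNA made by RNA polymerase I (and the 5S rRNA made by RNA polymerase III) with the help of assembly factors, and unassembled copies are degraded.

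The start sites of the mRNAs are shown first, because the TOP tract is the sequence that the members share and that the selection by name did not use. The motif searched was a C at the annotated start followed by at least 4 bases that are each C or T, read on the strand of the gene. No bases around a start were searched. Where a gene had several listed starts, the start with the longest tract was counted and is the one shown. RefSeq (GRCh38.p14) gave a start sequence for 63 of the 78 genes, and 47 of the 63 (74.6%) carried the motif, against 1404 of 27305 genes with a start sequence (5.14%). The share was 19 of 25 for the 40S and 28 of 38 for the 60S proteins. In each sequence of 30 bases the annotated start is the base at position 16, lower case marks sequence outside the tract, and capitals mark the tract where the motif matched. The first 10 windows match and belong to members described below that rose or had no call, and RPLP0, RPLP1 and RPLP2 together form the stalk of the 60S subunit.
RPL41, chr12:56116618-56116647, + strand: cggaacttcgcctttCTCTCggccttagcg
RPS19, chr19:41860240-41860269, + strand: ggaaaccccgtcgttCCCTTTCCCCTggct
RPS27A, chr2:55232673-55232702, + strand: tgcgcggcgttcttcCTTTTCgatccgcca
RPL36, chr19:5690280-5690309, + strand: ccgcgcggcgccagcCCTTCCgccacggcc
RPLP1, chr15:69452803-69452832, + strand: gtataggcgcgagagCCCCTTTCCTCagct
RPLP2, chr11:809952-809981, + strand: ttgcgtcggcgccttCCTTTTCCTCCCTgt
RPLP0, chr12:120201097-120201126, - strand: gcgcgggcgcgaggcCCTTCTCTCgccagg
RPS27, chr1:153990747-153990776, + strand: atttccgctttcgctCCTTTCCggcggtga
RPS12, chr6:132814554-132814583, + strand: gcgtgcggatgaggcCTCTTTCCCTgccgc
FAU, chr11:65122120-65122149, - strand: cgccctcgcttcttcCTCTTTCTCgactcc
The next 4 windows do not match at the listed start. They are the most strongly raised 40S member, another member with a large rise and both of the members with a window that fell.
RPS28, chr19:8321481-8321510, + strand: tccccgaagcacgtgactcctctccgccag
RPL32, chr3:12840436-12840465, - strand: ggtgaggtgacccttgacctcctgggatcg
RPL4, chr15:66504841-66504870, - strand: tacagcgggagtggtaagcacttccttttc
RPS7, chr2:3575245-3575274, + strand: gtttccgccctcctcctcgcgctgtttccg
A start that is off by a few bases gives no match. The windows of RPS28, RPL32 and RPL4 contain pyrimidine runs away from the listed start. In RPS7 a run extends across the start, with 3 bases from the start onwards, too few for the motif. Of the 47 members with the motif, 38 rose and 0 fell, against 21.1% and 50.9% of all genes. Their median change was 0.50 on the log2 scale. Of the 16 without it, 11 rose and 2 fell, with a median of 0.38. The 2 were RPL4 and RPS7, and the estimate for RPS7 was 0.19 after median-of-ratios scaling. A difference by motif was not tested. RPL37, RPL5, RPS2, RPL8, RPS20, RPL23, RPL30, RPL23A, RPL7 and RPS15A had no entry.

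As a set, ribosomal protein mRNAs took a larger share of the TPM in shFAM111B cells, and their median rise held on every scale tried. The summed level of the 78 genes was 136502, 139116 and 140338 TPM in the control libraries and 185766, 176661 and 204946 TPM in the shFAM111B libraries (means 138652 ± 1959 against 189124 ± 14438, SD, n = 3), a ratio of 1.36. Every shFAM111B library lay above every control library. These genes took 13.9% of all listed TPM in control and 19.2% in shFAM111B, and 18.2% and 22.7% of the TPM of nuclear protein-coding genes, where the ratio was 1.25. Of the 78 genes, 60 rose and 4 fell at an adjusted p under 0.05 in limma, against 21.1% and 50.9% of the 14394 genes tested, and 14 had no call. Quantile normalization changed this to 33 higher and 23 lower, against 32.5% and 36.8% of all genes. Median-of-ratios scaling gave 77 higher and 1 lower, against 35.8% and 35.2% of all genes. On the log2 scale the members changed by a median of 0.45 (from -0.66 for RPL4 to 1.37 for RPL23A), against -0.36 for all tested genes, so that relative to the median gene the members lay 0.81 higher. The members' median stayed above 0 in each of the 19 alternative analyses, with a lowest value of 0.11 under quantile normalization. In TPM 77 members, all but RPL4, lay above the median gene, but the number was 46 after quantile normalization, 50 with the trend with transcript length removed and 65 with that of coding length removed.

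The count of large rises depended on the scale. In TPM RPL23A, RPS28, RPL36, RPS19 and RPS27A passed the study's threshold of a fold change of 2 with P under 0.05, and 0 members passed it downwards, against 6.82% and 23.7% of all genes. The 5 that passed upwards became 33 with median-of-ratios scaling and 31 with scaling to the upper quartile, against 14.1% and 13.2% of all genes. When the libraries were quantile normalized 1 member passed upwards, against 11.8% of all genes. The groups did not overlap for 68 members, 62 of them higher in shFAM111B and 6 lower, against 22.5% and 52.8% of all genes. The 2 non-overlapping higher members without a call were RPS18 and RPL29, and the 2 lower ones were RPL15 and RPL26. An exact permutation test of 3 against 3 libraries cannot go below p = 0.1, so the calls rest on the spread that limma pooled over genes. In bulk RNA a change in each cell and a change in the mix of cell states cannot be told apart, and TPM are shares of a library, so an absolute amount of mRNA per cell was not measured.

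**Figure D1:**
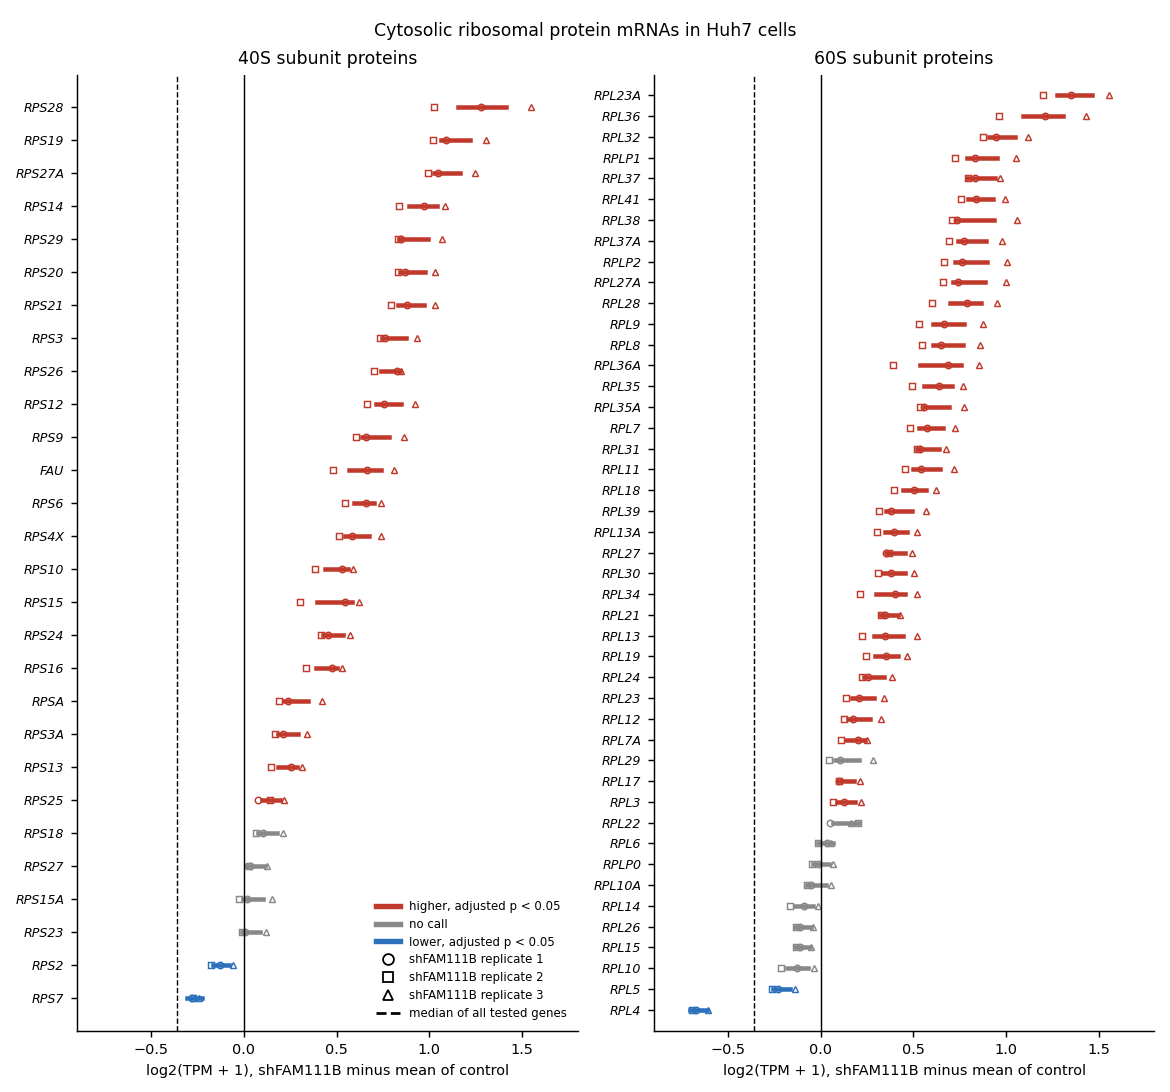
Log2(TPM + 1) of each shFAM111B library (open symbols) minus the control mean for 28 proteins of the 40S subunit (left) and 45 of the 60S subunit (right), with horizontal bars for the log2 fold change ± SE and a dashed line at the median of all 14394 tested genes. Red marks the 56 drawn members that rose, blue the 4 that fell (RPL4, RPL5, RPS7, RPS2) and grey the 13 without a call. Over all 78 members 33 were higher and 23 lower after quantile normalization, against 32.5% and 36.8% of all genes.

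The levels were ordered in a similar way in both groups, with RPL41 and RPS27 at the top and RPL36A at the bottom. Across the 78 genes the control and shFAM111B means had a Spearman correlation of 0.842 (a description over genes that share libraries). RPL41, which encodes the smallest ribosomal protein, was first in both groups and RPS27 was second. Of the 10 most abundant members in each group 7 were shared. RPL4 dropped from rank 4 to rank 38, RPS19 moved from 49 to 20 and RPS27A from 44 to 15. The 40S sum over the 60S sum was 0.732, 0.737 and 0.743 in control and 0.7503, 0.753 and 0.745 in shFAM111B. The groups did not overlap, and the shift was 1.02-fold, so both subunits rose by nearly the same factor.

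Of the 32 proteins of the 40S subunit 25 rose, 2 fell and 5 had no call, and their log2 fold changes had a median of 0.49. RPS28, which lies near the mRNA exit, had 795, 712 and 825 TPM in control and 1880.2, 1579 and 2274 TPM in shFAM111B, a 2.46-fold rise (log2 fold change 1.28 ± 0.13, adjusted p = 1.02e-04). RPS19, needed to mature the rRNA of the small subunit and mutated in Diamond-Blackfan anaemia, had 1286, 1362 and 1271 TPM in control and 2785, 2644 and 3232 TPM in shFAM111B (log2 fold change 1.14 ± 0.08, adjusted p = 1.74e-05). RPS27A is made as a fusion with ubiquitin, from which it is cleaved. It had 1415, 1409 and 1377 TPM in control and 2890.4, 2783 and 3319 TPM in shFAM111B (log2 fold change 1.09 ± 0.07, adjusted p = 1.24e-05). In all of them the shFAM111B libraries lay far above the control libraries, with replicate 3 the highest.

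RPS14, whose loss underlies the anaemia of the chromosome 5q deletion syndrome, rose from 545 ± 33.0 TPM in control to 1065 ± 89.8 TPM in shFAM111B (log2 fold change 0.96, adjusted p = 2.91e-05). RPS3, at the mRNA entry, rose from 1023 ± 42.5 TPM in control to 1797 ± 138 TPM in shFAM111B (log2 fold change 0.81, adjusted p = 3.24e-05). FAU, whose product is cut into a ubiquitin-like part and the 40S protein, rose from 639 ± 36.7 TPM in control to 1007 ± 114 TPM in shFAM111B (log2 fold change 0.65, adjusted p = 4.35e-04). RPS6, the ribosomal substrate of the S6 kinases, rose from 1219 to 1915 TPM (log2 fold change 0.65, adjusted p = 4.47e-05), and the X-linked RPS4X from 885 to 1354 TPM (log2 fold change 0.61, adjusted p = 1.22e-04). RPSA, also known as the laminin receptor, had a smaller rise from 1923 to 2345 TPM (log2 fold change 0.28, adjusted p = 0.006), which turned to -0.13 after quantile normalization. RPS12, named here for its abundance after its values were seen, had 3389, 3482 and 3408 TPM in control and 5783, 5418 and 6485 TPM in shFAM111B (log2 fold change 0.78, adjusted p = 5.30e-05), also without overlap.

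The 40S members without a rise in TPM include the most abundant one. RPS27 had 5851, 6151 and 6415 TPM in control and 6277, 6258 and 6693 TPM in shFAM111B (log2 fold change 0.06 ± 0.05, adjusted p = 0.323), and the groups overlapped. RPS18, at the head of the subunit, had means of 2849 and 3109 TPM (log2 fold change 0.13, adjusted p = 0.063), with each shFAM111B library above each control library. After median-of-ratios scaling both were called higher, RPS27 at 0.52 (adjusted p = 7.30e-05) and RPS18 at 0.58 (adjusted p = 3.79e-05), and upper-quartile scaling also called both higher. RPS7, which also binds the p53 regulator MDM2, had 1366, 1435 and 1389 TPM in control and 1148, 1153 and 1181 TPM in shFAM111B. The groups did not overlap and the fall was called (log2 fold change -0.27 ± 0.04, adjusted p = 6.74e-04), but the estimate was 0.19 after median-of-ratios scaling. RPS2 fell by a smaller amount, from 3226 ± 25.6 TPM in control to 2963 ± 126 TPM in shFAM111B (log2 fold change -0.12 ± 0.04, adjusted p = 0.041), and its estimate was 0.33 under that scaling. The RPS2 call was the same in 6 of 19 alternatives, and was lost with no filter (adjusted p = 0.176), under a replicate block (adjusted p = 0.053) and in 5 of the 6 fits that left out 1 library.

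Of the 46 proteins of the 60S subunit 35 rose, 2 fell and 9 had no call, and their median was 0.40 on the log2 scale. RPL23A, which lies by the exit of the peptide tunnel where the signal recognition particle docks, had 656, 709 and 737 TPM in control and 1787, 1608 and 2059 TPM in shFAM111B (log2 fold change 1.37 ± 0.09, adjusted p = 1.71e-05). RPL36 had 771, 758 and 756 TPM in control and 1761, 1483 and 2052 TPM in shFAM111B (log2 fold change 1.20 ± 0.11, adjusted p = 6.01e-05). RPL32 had 1604, 1754 and 1654 TPM in control and 3212, 3061 and 3627 TPM in shFAM111B (log2 fold change 0.98 ± 0.07, adjusted p = 2.27e-05). For all of them the groups were far apart. RPL41 had 7429, 7427 and 7514 TPM in control and 13308, 12596 and 14871 TPM in shFAM111B, a 1.82-fold rise (log2 fold change 0.86 ± 0.07, adjusted p = 2.81e-05), and without this gene the ratio of the summed TPM was 1.34 in place of 1.36.

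The proteins of the stalk, which recruits translation factors, moved unequally. RPLP1 had 1265, 1251 and 1257 TPM in control and 2240.4, 2076 and 2610.1 TPM in shFAM111B (log2 fold change 0.87 ± 0.08, adjusted p = 7.17e-05), and RPLP2 had 1315, 1305 and 1358 TPM in control and 2251, 2105 and 2664 TPM in shFAM111B (log2 fold change 0.81 ± 0.09, adjusted p = 1.24e-04). RPLP0, the base on which they sit as dimers, had 2532, 2531 and 2564 TPM in control and 2520.3, 2459 and 2665 TPM in shFAM111B (log2 fold change 0.00 ± 0.04, adjusted p = 0.963). The RPLP0 groups overlapped and their means differed by less than the SD within either group, while the acidic partners had no shFAM111B library below any control library. RPLP0 was called higher at 0.46 (adjusted p = 4.99e-05) after median-of-ratios and at 0.42 (adjusted p = 5.06e-05) after upper-quartile scaling, and it was at -0.31 after quantile normalization, so its direction depends on the scale.

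RPL5 and RPL11, which bind the 5S rRNA together and as a free complex inhibit MDM2, moved in opposite directions in TPM, though not after median-of-ratios scaling. RPL11 had 1687, 1788 and 1655 TPM in control and 2486, 2339 and 2809 TPM in shFAM111B (log2 fold change 0.57 ± 0.07, adjusted p = 3.43e-04). RPL5 had 1158, 1173 and 1113 TPM in control and 979, 957 and 1040.4 TPM in shFAM111B (log2 fold change -0.21 ± 0.05, adjusted p = 0.005), without overlap of the groups in either gene. Median-of-ratios scaling gave RPL5 an estimate of 0.24, so the direction for RPL5 depends on the scale, whereas RPL11 stayed above 0 in every alternative.

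RPL4, which lines the peptide tunnel, was the member with the largest fall. It had 3472, 3569 and 3663 TPM in control and 2236, 2205 and 2337 TPM in shFAM111B, a ratio of 0.63 (log2 fold change -0.66 ± 0.04, adjusted p = 1.51e-05). All shFAM111B values lay below all control values, and it was the only member called lower in all 19 alternatives. RPL39, at the end of the same tunnel, had 1913, 1948 and 1985 TPM in control and 2538, 2424 and 2894 TPM in shFAM111B (log2 fold change 0.42 ± 0.07, adjusted p = 0.001), but its estimate turned to -0.43 once the trend with transcript length was removed. RPL3, by the peptidyl transferase centre, rose only from 1621 ± 38.8 TPM in control to 1784 ± 91.5 TPM in shFAM111B (log2 fold change 0.14, adjusted p = 0.041) and was at -0.32 after quantile normalization. RPL10, a late-joining protein near that centre, had means of 2164 and 1985 TPM (log2 fold change -0.13, adjusted p = 0.081), with overlapping groups. RPL13A, known for translation control in the interferon response, rose from 1598 ± 32.5 TPM in control to 2124 ± 159 TPM in shFAM111B (log2 fold change 0.41, adjusted p = 6.93e-04), and its estimate was -0.054 after quantile normalization. RPL22, which is mutated in several cancers, had means of 1123 and 1233 TPM (log2 fold change 0.14, adjusted p = 0.125).

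**Figure D2:**
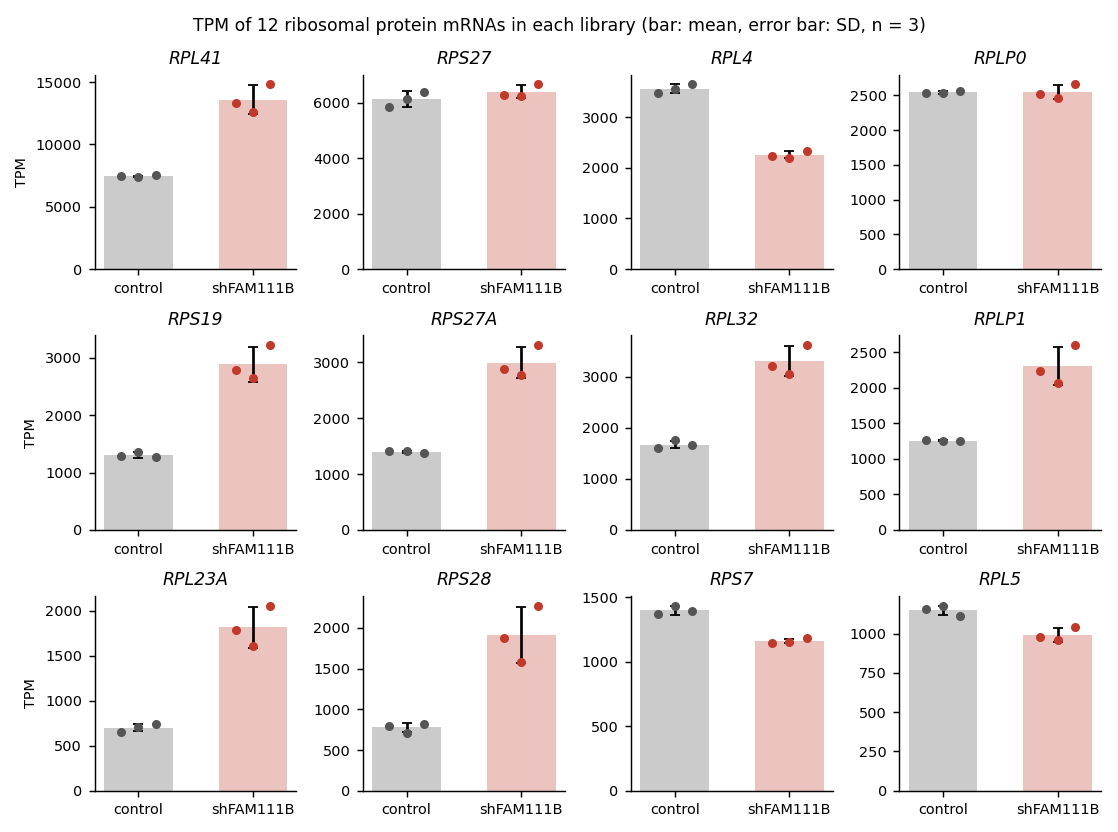
TPM of 12 members in each library (points), with the mean (bar, from 0) and SD (error bar, n = 3 per group). RPL41, RPS19, RPS27A, RPL32, RPLP1, RPL23A and RPS28 sit higher in all shFAM111B libraries, RPL4, RPS7 and RPL5 lower (RPS7 and RPL5 not after median-of-ratios scaling), and RPS27 and RPLP0 overlap.

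The shFAM111B libraries were not alike. Replicate 3 was the highest of them in 77 of the 78 members and replicate 2 the lowest in 72, and the median coefficient of variation was 2.67% in control and 7.56% in shFAM111B. Genes that are not protein-coding held 83812, 104761 and 43218 TPM in shFAM111B replicates 1, 2 and 3, against 31967 to 36262 TPM in control. The 5S and 5.8S rRNA genes within them held 35926, 53091 and 2567 TPM, against 1056 to 2850 TPM in control. The order of the members over the 3 libraries was thus the reverse of that of these RNAs. With replicate 3 alone against the controls the median of the members was 0.56, against -0.42 for all genes. Without replicate 3, 8 members fell in place of 4, against 52.2% of all genes. The mitochondrial chromosome, on the other hand, dropped from 199635 to 76315 TPM. The part of these classes in the rise was not tested beyond rescaling to nuclear protein-coding genes. That rescaling left 55 members higher and 12 lower, against 18.1% and 55.0% of all genes.

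Coding length moved with the change. Across the 78 members the Spearman correlation of log2 fold change with coding length was -0.455, and it was -0.372 across 12037 protein-coding genes (a description, since genes of the same libraries are not independent). Of the 9 members with a coding length up to 300 nt 8 rose (median 0.86), against 54.8% of 252 other coding genes of that length (median 0.52). Between 300 and 600 nt 37 of 44 members rose (median 0.50), against 45.4% of 1296 other genes (median 0.20). Above 600 nt 15 of 25 members rose and 3 fell (median 0.24), against 15.0% of 10410 others that rose and 60.6% that fell (median -0.55). In each class the median of the members lay above that of the other genes. The class above 600 nt has no upper bound, while its longest member, RPL4, has 1281 nt, so lengths there are not matched. With the trend with coding length removed, the members' median lay 0.38 above that of all genes. With the trend with coding length removed, 55 members were higher and 6 lower, against 34.8% and 35.1% of the 12037 protein-coding genes. With the trend with transcript length removed, 40 were higher and 17 lower, against 30.7% and 33.6% of all genes.

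Processed pseudogenes, copies of ribosomal protein mRNAs put back into the genome, can share reads with their parents. There are 2118 such pseudogenes in the deposited data, of which 62 passed the filter, and their summed level was 7891 TPM in control and 11900.5 TPM in shFAM111B. For 68 members the pseudogenes tied to them by symbol or description held under 1% of the joint TPM. For RPL36A, RPL9, RPS26, RPL23A and RPS28 the pseudogenes held more TPM than the gene itself. Where reads are shared, the value of the gene alone depends on how the counting split them. AC243919.1, named after its values were seen, held 1437 of the 1440 TPM of RPL9 pseudogenes in control. Its transcript of 636 nt differs from RPL9 by 93 edits, which count missing and added bases as well as changed ones. How far the 2 share reads was not tested. Of the 13 pseudogenes with a mean of at least 20 TPM, 6 have a transcript without any difference from their parent's transcripts in GENCODE v29. RPS28P7 (chromosome 11, 82689559 to 82689768) is one of them, with 995, 1112 and 942 TPM in control and 2127, 2005 and 2425 TPM in shFAM111B. Together, RPS28 and its pseudogenes rose 2.29-fold, from 1794 to 4109.8 TPM. RPL23AP42 (chromosome 3, 161429127 to 161429597), named after its values were seen, differs from RPL23A by 2 edits. It had 1692, 1678 and 1599.9 TPM in control and 2012, 2062 and 2061 TPM in shFAM111B, and with its pseudogenes RPL23A rose 1.63-fold in place of 2.59-fold, under the fold change of 2. RPL36A with its pseudogenes rose 1.90-fold against 1.58-fold alone. With members summed in this way 60 were higher and 3 lower, against 21.1% and 50.9% of all genes. RPS2 and RPL3 lost their calls and RPL22 gained a call.

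Ribosomal proteins outside the rule by name, and paralogues of members, were looked at next. RACK1, a scaffold on the 40S subunit, had 1871, 1898 and 1966 TPM in control and 1989, 1875 and 2081 TPM in shFAM111B (log2 fold change 0.05 ± 0.05, adjusted p = 0.398), and its groups overlapped, but it was called higher at 0.51 (adjusted p = 6.93e-05) after median-of-ratios scaling. Of 8 alternative paralogues, which can replace or resemble a standard protein, 6 passed the filter. Of these 4 rose and 1 fell, against 21.1% and 50.9% of all genes. RPL39L rose from 45.8 ± 3.90 TPM in control to 98.0 ± 12.3 TPM in shFAM111B (log2 fold change 1.08, adjusted p = 8.59e-05), RPL22L1 from 113 ± 8.06 TPM in control to 214 ± 18.03 TPM in shFAM111B (log2 fold change 0.92, adjusted p = 4.72e-05) and RPL36AL from 327 ± 10.00 TPM in control to 535 ± 29.7 TPM in shFAM111B (log2 fold change 0.71, adjusted p = 2.44e-05). RPS27L, a p53 target, rose from 195 to 229.8 TPM (log2 fold change 0.24, adjusted p = 0.007) but was at -0.20 with the transcript length trend removed, and RPL26L1 had means of 99.4 and 107 TPM (log2 fold change 0.11, adjusted p = 0.225). RPL7L1 fell from 81.4 ± 0.527 TPM in control to 27.9 ± 1.87 TPM in shFAM111B (log2 fold change -1.51, adjusted p = 3.15e-06), in contrast to RPL7 (log2 fold change 0.59).

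The genes that make and regulate ribosomes had medians below 0 in TPM, as had all tested genes (-0.36), unlike the ribosomal proteins. Their lists had median coding lengths of 1167 to 1634 nt, and of other coding genes above 600 nt 15.0% rose and 60.6% fell. Of all genes 21.1% rose and 50.9% fell, with 35.8% and 35.2% after median-of-ratios and 34.3% and 36.4% after upper-quartile scaling. With the coding length trend removed these shares were 34.8% and 35.1%, and with the transcript length trend removed 30.7% and 33.6%. Of 17 other TOP mRNAs, mostly translation factors, 4 rose and 10 fell, with a median of -0.38, close to the median gene. After median-of-ratios scaling that count was 8 higher and 4 lower, and with the coding length trend removed 7 and 4. EIF4B, an initiation factor that assists the helicase eIF4A, had 228, 230.5 and 219 TPM in control and 78.6, 79.7 and 74.2 TPM in shFAM111B (log2 fold change -1.53 ± 0.05, adjusted p = 2.40e-06). Of the 11 such genes with a start sequence 10 carried the motif that 47 of 63 members carried. Of 45 ribosome assembly factors 7 rose and 31 fell (median -0.70), against 16 and 24 after median-of-ratios or upper-quartile scaling and 14 and 22 with the coding length trend removed (median -0.19). The called factor with the smallest p was DDX21, a nucleolar RNA helicase, with 109.6, 99.4 and 97.3 TPM in control and 12.01, 13.5 and 10.5 TPM in shFAM111B (log2 fold change -2.99 ± 0.10, adjusted p = 2.46e-06). Of 14 genes of RNA polymerase I and its factors 1 rose and 11 fell (median -0.84), against 4 and 7 after median-of-ratios scaling. RRN3, the factor that brings the polymerase to the rRNA promoter, fell from 33.3 ± 0.352 TPM in control to 8.89 ± 0.74 TPM in shFAM111B (log2 fold change -1.79, adjusted p = 3.70e-06). Of 14 mTORC1 components and TOP regulators 4 rose and 8 fell (median -0.69), shares near the 21.1% and 50.9% of all genes. This became 6 and 7 after median-of-ratios scaling and 6 and 5 with the transcript length trend removed (median -0.073). LARP1, which binds the TOP tract, had 95.9, 95.5 and 93.8 TPM in control and 18.02, 19.4 and 17.4 TPM in shFAM111B (log2 fold change -2.32 ± 0.06, adjusted p = 1.54e-06). The medians of the assembly factor, polymerase and regulator lists stayed below 0 under every scaling tried, whereas that of the other TOP mRNAs was 0.078 after median-of-ratios scaling and 0.029 with the coding length trend removed.

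Mitochondrial ribosomal proteins, which translate the messages of the mitochondrial chromosome, also had a median above 0. All 78 listed by symbol passed the filter, 49 rose and 18 fell, with a median of 0.51 against 0.45 for the cytosolic set. After quantile normalization the medians were 0.52 and 0.11. The falls in TPM were 18 of 78 against 4 of 78, a difference that was not tested. Of all genes 21.1% rose and 50.9% fell. The mitochondrial list had a median coding length of 598.5 nt, and of other coding genes of 300 to 600 nt 45.4% rose and 29.3% fell. MRPS35 fell from 146 ± 3.09 TPM in control to 78.8 ± 1.12 TPM in shFAM111B (log2 fold change -0.88, adjusted p = 4.96e-06). Quantile normalization left 57 mitochondrial members higher and 9 lower, against 32.5% and 36.8% of all genes. The share with the motif was 6 of 69.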

How the data were processed

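RNA was extracted from Huh7 cells, poly(A) RNA was selected and libraries were made with a stranded kit. The authors deposited one table with TPM per gene and library, and the submitters' processing notes name RSEM, DESeq2 and the build hg38, with no versions. The table also holds the authors' group means and their own fold change, log2 fold change, p-value and adjusted p-value, which were not used. TPM hold no depth, so no count test was run and the precision set by depth is unknown. A gene was tested where 3 or more libraries reached 1 TPM (14394 genes), 1 was added to the deposited TPM, log2 was taken, and the groups were compared in limma 3.58.1 (R 4.3.3; lmFit, eBayes with trend, no covariate) with Benjamini-Hochberg adjustment over all of them. Log2 fold changes are on the log2(TPM + 1) scale, and rose or fell means an adjusted p under 0.05. Members, gene lists and tests were chosen with earlier results of these data known. Named genes are FAM111B, the called members with the largest changes, members chosen for their role, and for each list around the ribosome the called gene with the smallest p (all genes of the short lists), and others are marked. Positions, coding lengths and transcripts are from GENCODE v29 (GRCh38), which held 96.3% of the listed identifiers, and start sequences from RefSeq (GRCh38.p14). The fit was tested on simulated data with few changed genes, as likely to rise as to fall. Here 21.1% of tested genes rose and 50.9% fell, so that test does not show how the fit performs on these data. Same-numbered libraries did not deviate together (correlations 0.054, 0.035 and 0.091), so no block was used. Alternatives were other filters and pseudocounts, scalings, removal of length trends, sums with pseudogenes and left-out libraries. The values of the Y-linked members are not given, and some other genes are counted but not reported by name here.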

Additional observations from a re-analysis of the deposited data

How the results depend on the processing

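The medians of the members (all, 40S, 60S) stayed above 0 in all 19 alternatives, and the log2 ratio of the summed level did so in those that rescaled the libraries by a factor, left libraries out or added pseudogenes (it was not computed for the others). Of the alternatives, removing the coding length trend, taking shFAM111B replicate 3 alone and tying pseudogenes by description were added after seeing the data. Of the 60 members that rose, 27 rose in every alternative, 22 had an estimate below 0 in at least 1 and 10 were called lower in at least 1. Such counts were not made over all called genes. Of the 4 that fell, RPL4 fell in all and RPS7, RPL5 and RPS2 were called higher in at least 1. The causes were not tested.

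Median-of-ratios scaling (all genes' median 0.03, 50.4% of all calls higher against 29.4%) gave 1 lower, 33 past a fold change of 2, medians of 0.90 (40S 0.95, 60S 0.86), a sum of 0.90, and RPS7 0.19, RPS2 0.33, RPL5 0.24 and RPL10 0.33. Upper-quartile scaling (48.5% of calls higher) gave 1 lower, 31 past the fold change, medians of 0.86 (0.91, 0.82), a sum of 0.86, and RPS7 0.15, RPS2 0.29, RPL5 0.20 and RPL10 0.29. Quantile normalization (46.9%) gave 33 higher, 23 lower, 1 past the fold change, medians of 0.11 (0.24, 0.043), and RPLP0 -0.31, RPL3 -0.32, RPL13A -0.054, RPL22 -0.31, RPS18 -0.031, RPSA -0.13 and RACK1 -0.36. Scaling to nuclear protein-coding genes (24.8%) gave 12 lower, medians of 0.32 (0.37, 0.27), a sum of 0.32, and RPLP0 -0.12, RPS18 -0.0015, RPS27 -0.064, RACK1 -0.076 and RPL26L1 -0.017. Removing the transcript length trend (47.7%) gave 17 lower, 8 past the fold change, medians of 0.26 (0.29, 0.20), and RPLP0 -0.10, RPL10 0.15, RPL13A -0.043, RPL39 -0.43, RPS18 -0.37, RPS27 -0.91, RPS28P7 -0.56, RACK1 -0.17, RPL26L1 -0.27 and RPS27L -0.20. Removing the coding length trend (49.8%) left 1 past the fold change, with RPS2 0.13, RPL5 0.049, RPL22 -0.11, RPL39 -0.11, RPS18 -0.034, RPS27 -0.35, RPL26L1 -0.076 and RPS27L -0.12. With shFAM111B replicate 3 alone 13 passed the fold change, with medians of 0.56 (0.60, 0.52) and a sum of 0.56. Here the lone library is assumed to vary like the controls. Of all genes, 9.54% passed the fold change upwards with the transcript length trend removed and 9.46% with the coding length trend removed.

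Leaving out 1 library gave 55 to 62 higher, 3 to 8 lower and 5 to 7 past a fold change of 2, with a median of 0.40 to 0.49. Of all genes 18.3% to 20.9% rose, 46.4% to 52.2% fell and 5.26% to 7.43% passed the fold change upwards in these fits. Without replicate 3 of shFAM111B 8 members fell, and RPLP0 ranged from -0.030 to 0.028 over these fits. A replicate block gave 60 higher and 3 lower members, and the numbers do not pair the libraries. The other alternatives (no filter, at least 1 TPM in every library, pseudocount 0.1, sums with pseudogenes) left these counts within 1.5 times. With no counts in the table, the depth limit on any single value is unknown.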

Other observations

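RPS19BP1, which the selection by name also caught, encodes a nuclear protein that binds RPS19 and no subunit of the ribosome, and had 81.7, 82.8 and 82.1 TPM in control and 203, 180.4 and 219.9 TPM in shFAM111B (log2 fold change 1.28 ± 0.07, adjusted p = 8.96e-06). The groups did not overlap, and its 2.45-fold change lay close to that of RPS28 (2.46-fold). The readthrough gene RPL36A-HNRNPH2, which shares exons with RPL36A and was looked up after the members' values were seen, had 60.3, 65.5 and 52.3 TPM in control and 199, 262 and 275 TPM in shFAM111B (log2 fold change 2.02 ± 0.14, adjusted p = 1.63e-05). The readthrough gene RPL17-C18orf32, looked up at the same time, had means of 250.1 and 255 TPM (log2 fold change 0.03 ± 0.05, adjusted p = 0.655), with overlapping groups. How the counting split reads between these and the genes within them was not tested.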
